A study of Mus musculus with 44 samples.

Results

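The clock output transcription factors examined here were Dbp, Tef, Hlf, Nfil3, Ciart, Bhlhe40 and Bhlhe41, taken by symbol as 7 of the 55335 genes in the deposited TRAP-seq count table. TRAP (translating ribosome affinity purification) recovers the mRNA bound to tagged ribosomes of one class of cells. The 20 libraries, each from 1 male Emx1-NuTRAP mouse, came from the hippocampus of mice that had a running wheel from postnatal day 21 to 41 (early-life exercise, ELE) or were kept without a wheel (sedentary). In SIT libraries, nuclei and ribosomes were isolated simultaneously from 1 homogenate of both hippocampi, and 4 ELE and 4 sedentary mice were sequenced. In separate isolations only the left or only the right hippocampus of a mouse was used for TRAP, with 3 ELE and 3 sedentary mice for each side. The side of each mouse was taken from the study's sample sheet, and the order of the labels could be read as the opposite sides. All mice in both conditions carried the same alleles, the Emx1-IRES-Cre knock-in and the Cre-dependent NuTRAP cassette. Mice were pair-housed under a 12-h light/dark cycle and were killed the day after wheel access ended. The hour of killing is not given in the sources used here, so the position of each library in the daily cycle is unknown. The 7 genes were picked with earlier results of these libraries in view, and their differences between ELE and sedentary mice are therefore given as a description: it is stated which of them met the study's call rule, and nothing is inferred from that.

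The circadian clock is a feedback loop in which Clock and Arntl (also called Bmal1) activate E-box sequences and the Per and Cry proteins inhibit that activation. The genes described here lie at the edge of the loop. Dbp, Tef and Hlf encode the PAR bZIP factors, which activate target genes through D-box sequences, and Nfil3 (also called E4bp4) encodes a bZIP repressor that binds the same D-boxes. Bhlhe40 (Dec1) and Bhlhe41 (Dec2) encode repressors that bind E-boxes, and Ciart (Chrono) encodes a repressor of the Clock and Arntl complex. In most tissues Dbp is a direct and strongly rhythmic target of that complex, whereas Nfil3 peaks at the opposite time of day. In neurons Nfil3, Bhlhe40 and Bhlhe41 also respond to stimuli that are not circadian.

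All 7 are single protein-coding genes of the GRCm38 mouse genome. Dbp lies at chr7:45705088-45710203 on the plus strand, Tef at chr15:81802421-81826863 on the plus strand, Hlf at chr11:90336536-90390895 on the minus strand and Nfil3 at chr13:52967209-52981073 on the minus strand. Ciart lies at chr3:95878503-95882251 on the minus strand, and the paralogues Bhlhe40 and Bhlhe41 lie on the same chromosome, at chr6:108660629-108666925 on the plus strand and at chr6:145858243-145865558 on the minus strand. No other annotated gene overlapped any of them on its own strand. Genes on the opposite strand overlapped Dbp, Tef, Ciart, Bhlhe40 and Bhlhe41, and the counting used strand.

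Since E-boxes and D-boxes are the sequences through which these genes are regulated and regulate others, the annotated promoters were searched for them. RefSeq windows of GRCm38.p6, from 250 bases before to 50 bases after a start site, were held for 6 of the 7 genes, and Tef had a window for each of 2 start sites. The E-box CACGTG, which reads the same on both strands, was found in the windows of Ciart, Bhlhe41 and Tef, that is, 3 of the 6 genes, against 8.09% of 27025 genes with a window. Of the 12 core clock genes with a window it was found in Per1 and Cry1. The 30 bases around each upstream match are shown 5′ to 3′ on the strand of the gene, with the E-box in capitals.
Ciart, distal, chr3:95882327-95882356, minus strand: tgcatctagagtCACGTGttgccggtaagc
Ciart, proximal pair, chr3:95882262-95882291, minus strand: ggaggCACGTGcagaaccgCACGTGtctgg
Bhlhe41, chr6:145865556-145865585, minus strand: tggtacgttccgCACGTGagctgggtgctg
Tef, first start site, chr15:81802534-81802563, plus strand: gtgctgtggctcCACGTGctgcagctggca
Tef, second start site, chr15:81811264-81811293, plus strand: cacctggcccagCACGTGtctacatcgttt
Ciart held 3 E-boxes, whose first bases lay 116, 58 and 44 bases before its start site, and Bhlhe41 held 1 at 153 bases. The E-boxes of Tef lay 127 and 138 bases before its respective start sites. Both lay inside the Tef span given above, which begins upstream of either RefSeq start site. The E-box-like CACGTT, searched on both strands, and the D-boxes TTACGTAA, which reads the same on both strands, and TTATGTAA, searched on both strands, were found in none of these windows, and they were found in 4.68%, 0.119% and 0.938% of all 32851 windows. For Dbp, Hlf and Nfil3 none of these letters occurred in the window searched, which says nothing of sites elsewhere in the gene.

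Libraries held between 45895097 and 65767802 counts, and every one of the 7 genes had at least 90 counts in every library. The excitatory neuron markers Slc17a7, Camk2a, Emx1 and Neurod6 summed to between 6011 and 9322 CPM (counts scaled to library size) in every group. Oligodendrocyte markers summed to between 1808 and 4123 CPM and astrocyte markers to between 549 and 1259 CPM, so the libraries were not made up of neuronal mRNA alone. Choroid plexus markers summed to between 17.3 and 1265 CPM, with 17.3 to 42.7 CPM in right ELE mice and 34.9 to 1153 CPM in right sedentary mice. Some of these sums did not overlap between ELE and sedentary mice. Of all genes, 22.1% did not overlap in SIT (the 5 mice kept by the study) and 10.8% did not on the left. Oligodendrocyte markers were at 2162 to 2404 CPM in left ELE and 2440 to 2822 CPM in left sedentary mice. Among the 5 SIT mice that the study kept, choroid plexus markers were at 128 to 575 CPM in ELE and 584 to 669 CPM in sedentary mice, and inhibitory neuron markers at 56.9 to 63.6 CPM and 64.1 to 66.4 CPM. Their part in the results was not tested. In SIT the study left out 2 sedentary mice. NT7.2.3 and its family member NT7.2.4 had 8.64% and 9.64% of their counts on mitochondrial genes, against 0.0704% to 0.523% elsewhere. They also held the highest sums of inhibitory neuron markers, up to 556 CPM, and of microglial markers, up to 146 CPM. The SIT ELE mouse NT6.304, also left out by the study, stood apart by its immediate early genes, with Fos at 614 CPM against 4.96 to 34.5 CPM in all other libraries. The SIT comparison below follows the study in using 3 ELE and 2 sedentary mice, and the fold changes over all 8 mice are given beside it. Of those 5 mice, the 2 ELE mice of family TG7.4 had no sedentary counterpart of their family.

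Divided by exonic length, Tef was the most abundant of the 7 genes, with a median of 49.4 CPM per kb over the 20 libraries and a range of 30.4 to 57.8. Hlf had a median of 21.7 CPM per kb and Bhlhe40 of 20.7 CPM per kb, with ranges of 8.84 to 32.1 and 16.6 to 27.9, so that these neighbours were not separated. Dbp followed at 10.4 CPM per kb (2.26 to 18.6). Bhlhe41 at 7.49 CPM per kb (5.61 to 34.2) and Nfil3 at 6.94 CPM per kb (3.67 to 26.0) overlapped each other and Dbp across libraries. Ciart was lowest at 2.11 CPM per kb (0.794 to 3.00).

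The spread between libraries of a group differed widely among the genes. The standard deviation of log2 CPM within groups was 0.67 for Bhlhe41, 0.56 for Hlf, 0.55 for Dbp and 0.51 for Nfil3, and each of these exceeded that of at least 93.3% of 14225 genes whose mean reached 1 CPM. It was 0.34 for Ciart and 0.25 for Tef. Bhlhe40, with 0.11, lay at the other end, above that of 6.40% of those genes. Over these 20 libraries the closest relatives in the set, Bhlhe40 and Bhlhe41, were therefore the least and the most variable of the 7. These spreads include NT6.304, which the study left out. On the log2 scale it lay 1.71 above its group mean for Bhlhe41, 1.36 above for Nfil3, 1.43 below for Dbp and 1.05 below for Hlf. Spreads without it are not given, so the ranking holds for the 20 libraries only. Of the libraries, 3 lay far out for Hlf and Bhlhe41. NT6.304 was the lowest of all 20 for Dbp, Tef and Hlf and the highest for Nfil3, Bhlhe40 and Bhlhe41. The left ELE mouse TG9.1.4 and the right sedentary mouse TG9.1.1 shared low Hlf, at 64.2 and 73.8 CPM, and high Bhlhe41, at 107 and 97.1 CPM, whereas the other 17 libraries lay between 37.7 and 60.5 CPM for Bhlhe41.

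**Figure D1:**
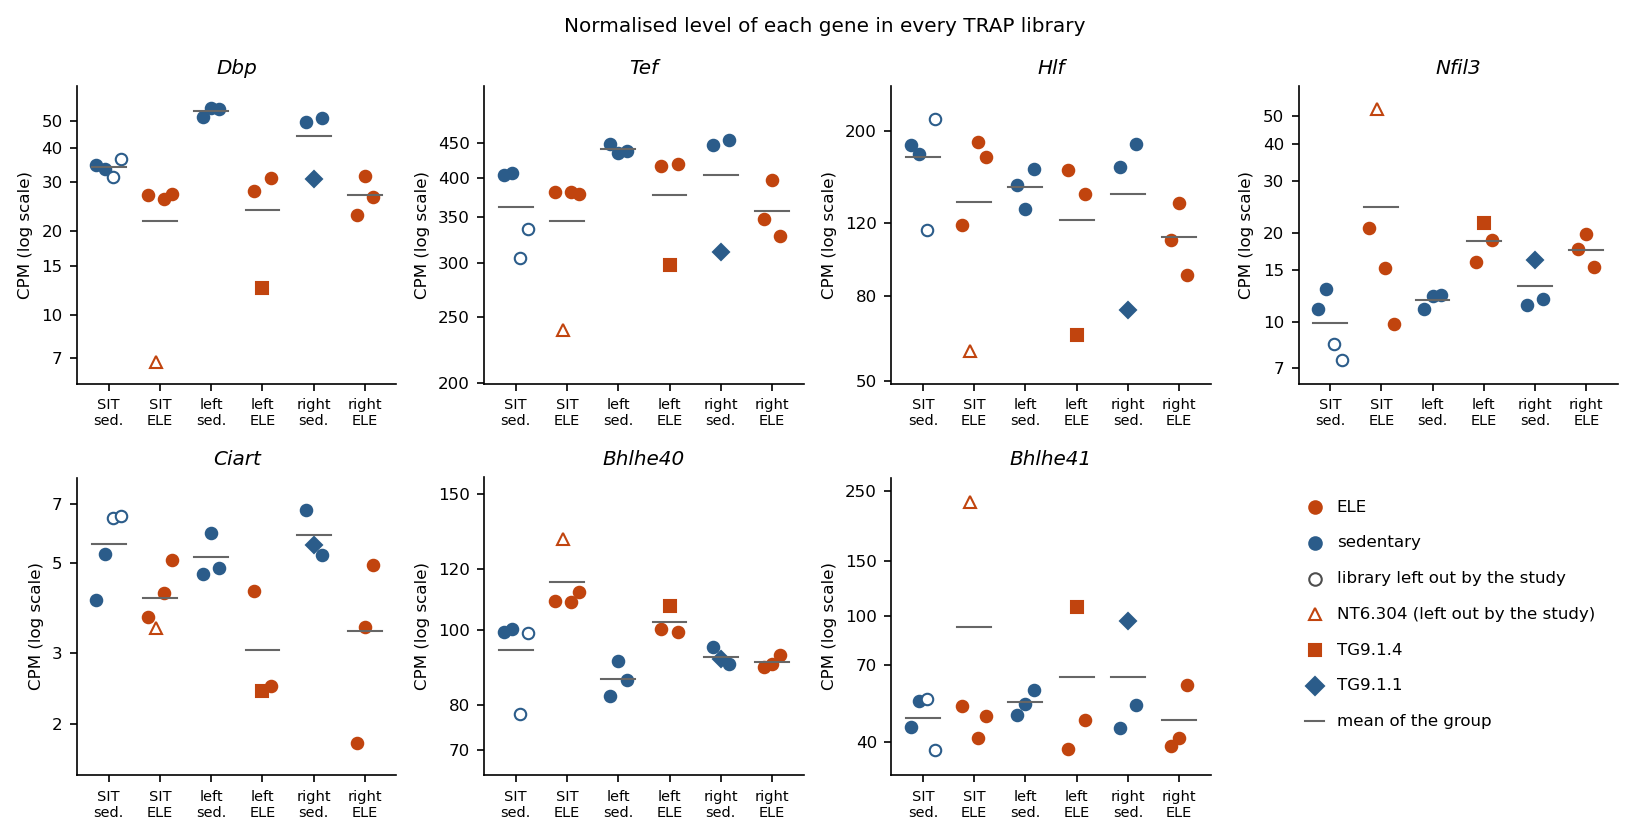
Each panel plots 1 gene, with the group on the x axis and TMM-normalised CPM on a log y axis; points are libraries (red ELE, blue sedentary, open points left out by the study) and horizontal lines are group means. NT6.304 (open triangle), TG9.1.4 (square) and TG9.1.1 (diamond) sit low for Hlf and high for Bhlhe41, at 230, 107 and 97.1 CPM, and the ELE points for Dbp lie below the sedentary ones in the SIT and left libraries.

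Dbp was lower in ELE than in sedentary mice in each of the isolations. In the left hippocampus it was at 27.9, 12.5 and 31.0 CPM in the ELE mice and at 51.6, 55.5 and 55.2 CPM in the sedentary mice. The groups did not overlap, and TG9.1.4 was the lowest ELE library. The log2 fold change was -1.19 ± 0.282 (SE, n = 3 and 3). In the right hippocampus Dbp was at 22.8, 31.6 and 26.4 CPM in the ELE mice and at 49.5, 30.9 and 51.2 CPM in the sedentary mice. Here TG9.1.1, the sedentary mouse with low Hlf, fell among the ELE mice, and the log2 fold change of -0.70 ± 0.191 (SE, n = 3 and 3) became -0.91 without it. In the SIT libraries Dbp was at 27.0, 26.2 and 27.2 CPM in the 3 ELE mice and at 34.6 and 33.4 CPM in the 2 sedentary mice, without overlap and with a log2 fold change of -0.34 ± 0.126 (SE). The SIT mice that the study left out kept that order, with 6.78 CPM in the ELE mouse NT6.304 and 31.3 and 36.3 CPM in the sedentary mice, and over all 8 mice the log2 fold change was -0.63 ± 0.344 (SE). As in any bulk measurement, fewer cells with the transcript and less transcript per cell cannot be told apart.

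Tef and Hlf, the other PAR bZIP factors, showed smaller differences of the same sign. Tef had log2 fold changes of -0.09 ± 0.0797 in SIT, -0.22 ± 0.127 on the left and -0.17 ± 0.142 on the right (SE). In SIT it was at 381, 381 and 379 CPM in the ELE mice and at 404 and 407 CPM in the sedentary mice, and on the left at 417, 298 and 419 CPM in the ELE mice and at 449, 436 and 438 CPM in the sedentary mice. Neither of these pairs of groups overlapped, yet the differences were below 1.3-fold. Over all 8 SIT mice Tef did overlap, with 239 CPM in NT6.304 and 304 and 337 CPM in the left-out sedentary mice, and the log2 fold change was -0.06 ± 0.168 (SE). On the right the groups overlapped, and TG9.1.1 had 311 CPM against 446 and 455 CPM in the other sedentary mice. Hlf overlapped between ELE and sedentary mice in every isolation, with log2 fold changes of -0.18 ± 0.167, -0.27 ± 0.286 and -0.34 ± 0.282 (SE) in SIT, left and right and -0.35 ± 0.315 (SE) over all 8 SIT mice. Hlf on the left was at 161, 64.2 and 141 CPM in the ELE mice and at 149, 130 and 162 CPM in the sedentary mice, and without TG9.1.4 its log2 fold change was 0.04. On the right it went from -0.34 to -0.66 without TG9.1.1. The sign of the Hlf difference on the left thus turned on 1 mouse.

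Nfil3, the repressor that competes with the PAR bZIP factors for D-boxes, was higher in ELE mice. On the left it was at 16.03, 21.64 and 19.003 CPM in the ELE mice and at 11.1, 12.2 and 12.4 CPM in the sedentary mice, without overlap, and the log2 fold change was 0.66 ± 0.139 (SE, n = 3 and 3). On the right it was at 17.6, 19.9 and 15.3 CPM in the ELE mice and at 11.4, 16.2 and 11.9 CPM in the sedentary mice, where only TG9.1.1 reached the ELE range, and the log2 fold change was 0.42 ± 0.172 (SE, n = 3 and 3). In SIT the groups overlapped, with 20.9, 15.2 and 9.83 CPM in the ELE mice and 11.1 and 12.9 CPM in the sedentary mice, and a log2 fold change of 0.35 ± 0.276 (SE). With all 8 SIT mice the log2 fold change was 1.32 ± 0.450 (SE), where NT6.304 had 52.6 CPM and the left-out sedentary mice 8.41 and 7.43 CPM. With NT6.304 alone left out it was 0.63. With all 8 mice Nfil3 was the 1 gene of the 7 called by the rule given below, where 7.84% of all genes were called.

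Ciart, the scarcest transcript, was lower in ELE mice of the separate isolations. It was at 4.27, 2.41 and 2.48 CPM in left ELE mice and at 4.68, 5.93 and 4.87 CPM in left sedentary mice, a log2 fold change of -0.76 ± 0.264 (SE, n = 3 and 3). In right ELE mice it was at 1.80, 3.47 and 4.94 CPM and in right sedentary mice at 6.77, 5.55 and 5.23 CPM, a log2 fold change of -0.78 ± 0.319 (SE, n = 3 and 3). Neither side overlapped. In SIT the groups overlapped, at 3.68, 4.21 and 5.08 CPM in the ELE mice and 4.06 and 5.25 CPM in the sedentary mice, and the log2 fold change was -0.11 ± 0.269 (SE). Over all 8 SIT mice they overlapped too, at -0.43 ± 0.234 (SE).

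The Dec repressors differed from each other. Bhlhe40 was at 109, 109 and 112 CPM in the SIT ELE mice against 99.6 and 100.3 CPM in the sedentary mice, and at 100.3, 108 and 99.4 CPM in left ELE mice against 82.3, 91.2 and 86.1 CPM in left sedentary mice. The groups did not overlap in either isolation, and the log2 fold changes were 0.14 ± 0.0945 and 0.24 ± 0.0761 (SE), below 1.3-fold. Over all 8 SIT mice Bhlhe40 did not overlap either, at 0.30 ± 0.127 (SE). On the right they overlapped, at 89.6 to 92.8 CPM in ELE mice and 90.4 to 95.1 CPM in sedentary mice, with a log2 fold change of -0.02 ± 0.0796 (SE). Bhlhe41 overlapped in every isolation and had no common sign, with -0.06 ± 0.139 in SIT (0.98 ± 0.499 over all 8 mice), 0.26 ± 0.338 on the left and -0.46 ± 0.271 on the right (SE). On the left it was at 38.1, 107 and 46.8 CPM in the ELE mice and at 48.7, 52.8 and 58.6 CPM in the sedentary mice, and on the right at 38.9, 41.1 and 60.5 CPM in the ELE mice and at 44.1, 97.1 and 52.3 CPM in the sedentary mice. Single mice, TG9.1.4, TG9.1.1 and, over all 8 SIT mice, NT6.304, set the sign or size of these differences. NT6.304 had 230 CPM, against 41.2 to 52.0 CPM in the other SIT ELE mice and 37.7 to 54.6 CPM in SIT sedentary mice. Without TG9.1.4 the left value was -0.33, and without TG9.1.1 the right value was -0.05.

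**Figure D2:**
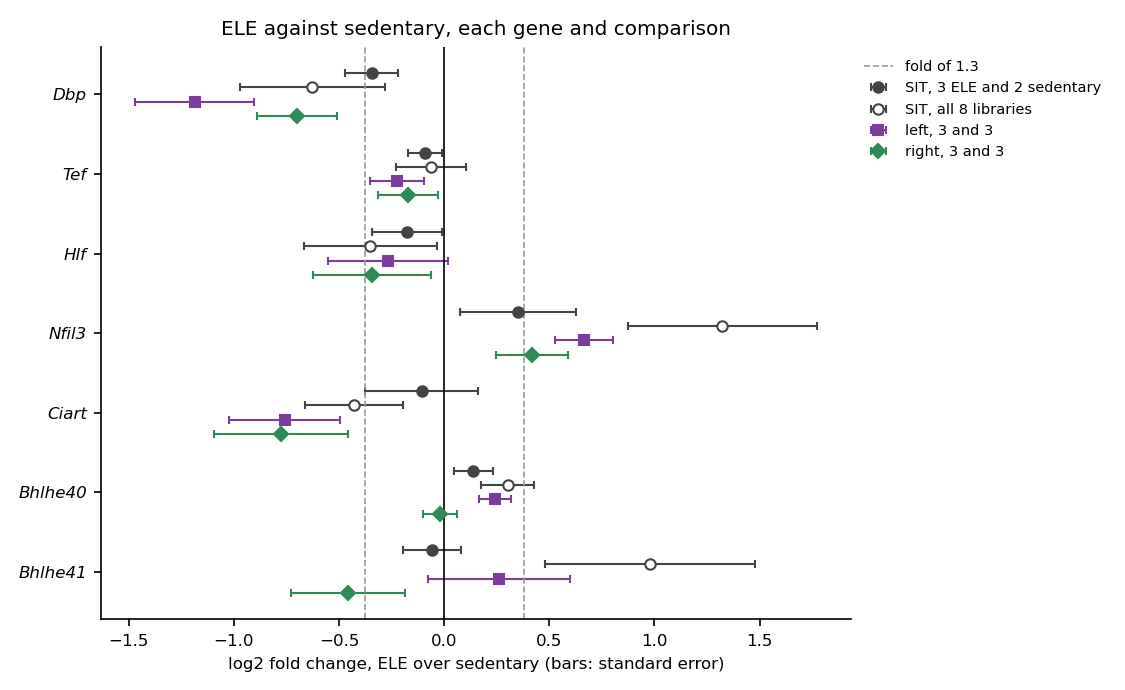
The x axis is the log2 fold change of ELE over sedentary mice with its standard error, for each gene (rows) and each comparison (symbols), with dashed lines at a fold of 1.3. Dbp lies below 0 in all 4 comparisons and Nfil3 above 0 in all 4, while Bhlhe41 runs from -0.46 on the right to 0.98 with all 8 SIT mice.

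By the study's rule of an unadjusted p under 0.05 and a fold over 1.3, in edgeR's quasi-likelihood test over all genes, 0 of the 7 genes were called in SIT, where 3.73% of all genes tested were called. At an unadjusted p under 0.05 alone there was 1 of the 7, as there were 1000 of 18238 genes, and DESeq2 also called 0 by the full rule. With a block on family the SIT difference rested on 1 ELE mouse, NT6.303, against NT6.305 and NT6.306. Its log2 fold changes were -0.61 for Hlf and 0.80 for Nfil3. In the 4 NT6 mice alone, which include NT6.304, 2 of the 7 were called in SIT, Hlf lower (-1.03 ± 0.319) and Nfil3 higher (1.62 ± 0.440, SE). Of all genes, 6.74% were called in the NT6 mice. On the left 3 of the 7 were called, where 2.12% of all genes were called. Dbp and Ciart were called lower there, against 0.980% of all genes, and Nfil3 higher, against 1.14%, in the groups whose oligodendrocyte markers did not overlap. On the right these 3 genes were called in the same directions, where 2.00% of all genes were called, 1.25% lower and 0.746% higher. In the additive model over both hemispheres these were again the 3 genes called, against 2.06% of all genes, with log2 fold changes of -0.94 ± 0.194 for Dbp, 0.54 ± 0.114 for Nfil3 and -0.77 ± 0.216 for Ciart (SE, 6 ELE and 6 sedentary mice). The left and right comparisons share no mice. Both drew on families TG7.3, TG9.1 and TG9.2, each with 1 ELE and 1 sedentary mouse per side. Groups did not overlap for 3 of the 7 genes in SIT (22.1% of all genes), for 5 of the 7 on the left (10.8%) and for 1 of the 7 on the right (7.69%). Since the genes were chosen on these contrasts, nothing is read from the counts.

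Some calls depended on 1 mouse. Leaving out 1 mouse at a time, between 2 and 3 of the 7 genes were called on the left, where 1.23% to 5.34% of all genes were, and between 1 and 4 on the right, where 1.73% to 3.61% were. Nfil3 on the right lost its call without any of TG7.3.1, TG9.1.3, TG7.3.3 or TG9.2.3, with log2 fold changes between 0.32 and 0.42. Ciart lost its call on the left without TG9.2.2 or TG9.1.2, at -0.63 and -0.65, and on the right without TG7.3.1, TG9.1.3 or TG7.3.3, at values from -0.47 to -0.79. Without TG9.1.1 the right comparison gained Hlf, and without TG9.2.1 or TG7.3.3 it gained Bhlhe41, at -0.69 and -0.67.

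The study also asked whether ELE acted alike on the left and right. For the 7 genes the difference between the left and right log2 fold changes was not past the threshold in any, with every adjusted p at 1 in edgeR's test of the interaction, in which 0 of all genes passed and 490 had an unadjusted p under 0.05. Bhlhe40 was the 1 gene of the 7 among those 490, at 0.26 ± 0.0986 (SE). DESeq2 passed 2 genes, none of them among the 7. The interaction was largest for Bhlhe41, at 0.72 ± 0.496, and Dbp, at -0.49 ± 0.376 (SE), and these errors leave room for differences as large as the ELE differences themselves.

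Comparisons that did not enter the choice of genes could be tested. Between the left and right hippocampus, in a model with exercise, log2 differences (left over right) ranged from -0.17 ± 0.215 for Ciart to 0.10 ± 0.101 for Tef (SE, n = 6 and 6), and no gene of the 7 passed, each with an adjusted p of 1 in edgeR. Over all genes 0 passed in edgeR and 0 in DESeq2, with 469 at an unadjusted p under 0.05 in edgeR. Between SIT and separate isolation, with 5 and 12 mice, Bhlhe40 was higher in SIT by 0.17 ± 0.0479 on the log2 scale, with an adjusted p of 0.0124 in edgeR. It was the 1 gene of the 7 to pass, where 23.3% of all genes passed. In the other fits of the same 5 SIT mice or fewer its adjusted p ran from 0.0034 in DESeq2 to 0.0367 without a filter on low counts, and it was 0.0567 with all 20 libraries. Hlf was higher in SIT by 0.40 ± 0.181, with an adjusted p of 0.123. For the other 5 genes differences ranged from -0.25 ± 0.205 for Bhlhe41 to 0.14 ± 0.199 for Ciart. The isolation method cannot be told apart from the mice's families or from the use of both hippocampi or 1.

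The core clock gives the setting in which these factors work. Of 15 core clock genes, none was called in SIT, and 2 were called on each side, where 2.12% (left) and 2.00% (right) of all genes were called. Arntl, the transcriptional activator of the loop, was the gene called higher on both sides, at log2 fold changes of 0.48 ± 0.0841 on the left and 0.52 ± 0.0994 on the right (SE). It was at 42.2, 45.5 and 44.9 CPM in left ELE mice and at 30.5, 33.3 and 31.2 CPM in left sedentary mice, and at 44.0, 45.1 and 47.0 CPM in right ELE mice and at 32.4, 33.7 and 29.0 CPM in right sedentary mice. No ELE library overlapped a sedentary one on either side, and TG9.1.4 and TG9.1.1 each had the highest Arntl of its group, close to the other mice. Arntl stayed called on both sides whichever mouse was left out. In the additive model over both hemispheres Arntl was the 1 gene of 18810 (0.00532%) with an adjusted p under 0.05 in edgeR, 0.00859, at a log2 fold change of 0.50 ± 0.0579 (SE). No gene passed without TG7.3.4, TG9.2.4 or TG9.2.1, with lowest adjusted p of 0.0576, 0.0564 and 0.0510. DESeq2 passed 11 genes with all 12 mice, 1 of them among the 7 clock output genes, and 3 genes on the left, also with 1 of the 7. Without a filter on low counts, edgeR passed 3 genes over both hemispheres and 27 on the right, each with 1 of the 7. In SIT its log2 fold change was 0.19 ± 0.157, and over all 8 SIT mice it was called higher, at 0.42 ± 0.164 (SE).

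Per3 was the gene called lower on the left, at -0.84 ± 0.33, and had -0.75 ± 0.35 on the right without a call. Nr1d2, which encodes a repressor of Arntl, was called lower on the right, at -0.51 ± 0.162, and had -0.53 ± 0.278 on the left (SE). Single mice moved these values. Left Per3 was at -0.49 without TG9.1.4 and lost its call without any 1 of the 3 sedentary mice, and right Per3 was at -1.13, and called, without TG9.1.1. Left Nr1d2 was at -0.23 without TG9.1.4, and right Nr1d2 lost its call without TG9.2.3, at -0.36. Leaving out 1 mouse also brought calls for Cry1, Nr1d1, Nr1d2 and Per2 on the left and for Per1 and Rorb in SIT. Per1 and Per2 had log2 fold changes within ±0.10 on both sides, and 0.27 ± 0.141 and -0.05 ± 0.212 in SIT. The median over the 15 core clock genes was -0.05 in SIT, -0.03 on the left and -0.02 on the right, beside medians over all genes within 0.01 of 0. Of 7 other clock-controlled genes (Usp2, Wee1, Nampt, Noct, Pdxk, Por and Klf9), none was called in SIT, left or right, with medians of 0.03, -0.03 and -0.08. Over all 8 SIT mice Rora, of the core clock list, was called lower at -0.82 ± 0.246 and Pdxk at -0.49 ± 0.185 (SE).

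**Figure D3:**
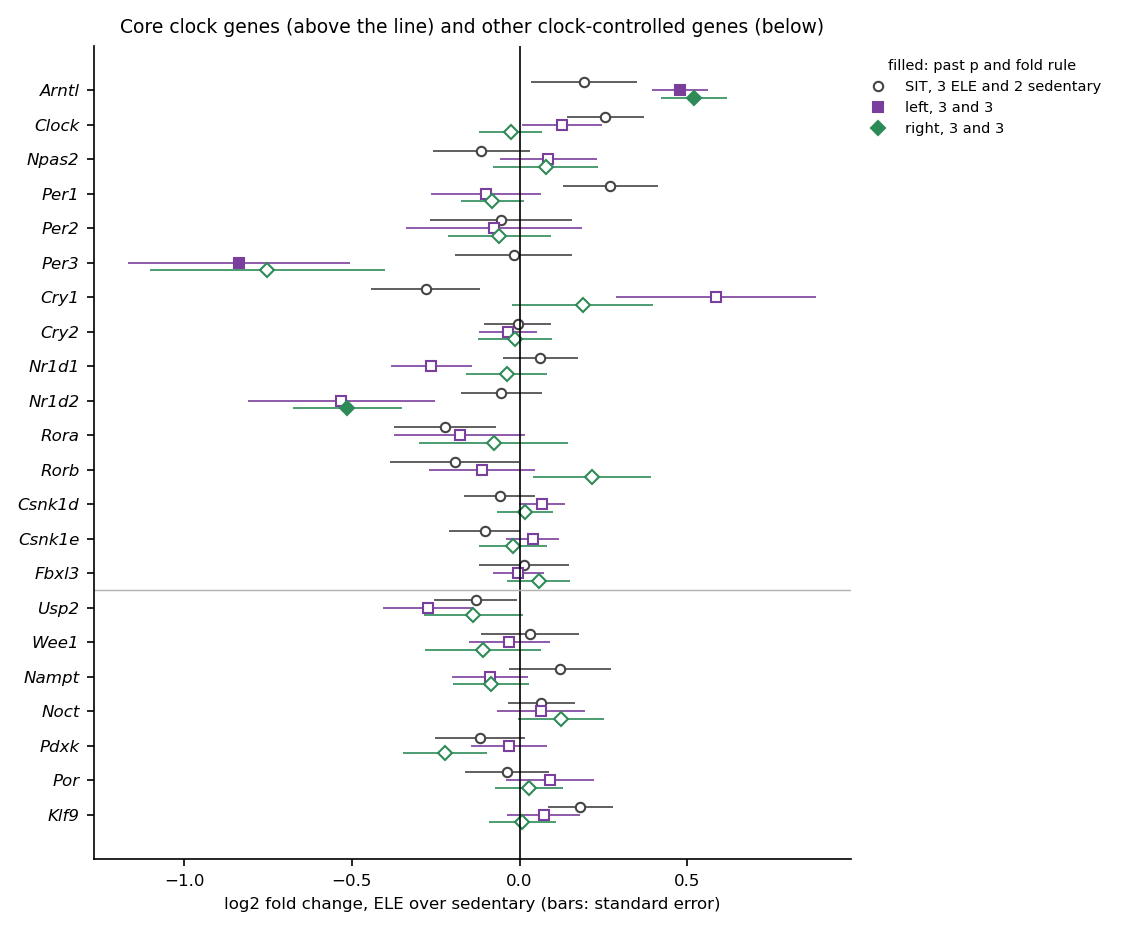
The x axis is the log2 fold change of ELE over sedentary mice with its standard error for 15 core clock genes and 7 other clock-controlled genes; filled symbols passed an unadjusted p of 0.05 and a fold of 1.3. Arntl is filled at 0.48 and 0.52 for left and right, Per3 at -0.84 for left and Nr1d2 at -0.51 for right, and no gene is filled in SIT.

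Because Nfil3 and the Dec genes also respond to stimulation and hormones, 2 further lists were read beside them. Of 8 activity-induced genes, 3 were called higher in ELE mice in SIT (Arc 0.77, Nr4a1 0.74 and Junb 0.39), 1 on the left (Fos 1.3) and 3 on the right (Fos 0.94, Egr1 0.69 and Nr4a1 0.50), and none was called lower. Of all genes, 3.73%, 2.12% and 2.00% were called in either direction in SIT, left and right. Most of these calls rested on single mice. Left Fos was at 0.36 without TG9.1.4, and right Fos at 0.53, Nr4a1 at 0.26 and Egr1 at 0.42 without TG9.1.3, of which Egr1 alone stayed called. In SIT, without NT6.303, Arc was at 0.31 and Junb at 0.25, both no longer called, and Nr4a1 at 0.53, still called. With all 8 SIT mice, and so with NT6.304, 8 of the 8 were called higher, where 7.84% of all genes were called in either direction. Of 6 glucocorticoid targets, Errfi1 was called higher in SIT, at 0.41 and, over all 8 mice, at 0.58, but not without NT6.303 or NT6.305, and none was called on either side. The part that neuronal activity had in the levels of Nfil3 and Bhlhe41 was not tested.

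Across the 20 libraries, after the mean of each group was removed, Dbp, Tef and Hlf ran together and opposite to Bhlhe41, and Dbp and Hlf also ran opposite to Nfil3. Of 21 pairs, 10 passed an adjusted p of 0.05 by a two-sided permutation test of Pearson's r that shuffled libraries within groups, 4 with r above 0 and 6 below. Among the PAR bZIP genes the correlations were r = 0.88 for Dbp and Tef (Spearman's rho = 0.73, p = 0.00416, adjusted p = 0.0218), r = 0.86 for Dbp and Hlf (rho = 0.78, adjusted p = 0.0218) and r = 0.90 for Tef and Hlf (rho = 0.70, adjusted p = 0.0218, permutation test). Bhlhe41 ran against all 3, with r = -0.93 against Dbp (rho = -0.83, adjusted p = 0.0376), r = -0.86 against Tef (rho = -0.64, adjusted p = 0.0281) and r = -0.90 against Hlf (rho = -0.83, p = 0.00034, adjusted p = 0.00714). Nfil3 followed Bhlhe41 (r = 0.79, rho = 0.68, adjusted p = 0.0281) and ran against Dbp (r = -0.76, rho = -0.54, adjusted p = 0.0444), Hlf (r = -0.66, rho = -0.61, adjusted p = 0.0414) and Ciart (r = -0.44, rho = -0.61, adjusted p = 0.0281). None of the 6 pairs with Bhlhe40 passed. By Spearman's rho 7 of the 21 pairs passed, and all 7 were among the 10. Other genes reached such values too. Among 14215 genes ranked from the highest r with Dbp over the 20 libraries, Tef stood at 87 and Fosb, at r = -0.76, at 13487. In the ranking for Hlf, Per2, at r = -0.65, stood at 12960.

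Without the 2 libraries farthest from the median of the first gene, r was 0.78 for Dbp and Tef, 0.76 for Dbp and Hlf, 0.82 for Tef and Hlf, -0.80 for Dbp and Bhlhe41, -0.74 for Tef and Bhlhe41 and -0.86 for Hlf and Bhlhe41. It fell to -0.49 for Dbp and Nfil3 and to -0.41 for Hlf and Nfil3, and was 0.58 for Nfil3 and Bhlhe41 and -0.46 for Nfil3 and Ciart. With NT6.304 alone left out, 1 pair passed, Hlf and Bhlhe41, at r = -0.89 (adjusted p = 0.034, permutation test). In the 17 libraries that the study kept, r for Hlf and Bhlhe41 was -0.90 and for Dbp and Tef 0.92, but 0 pairs passed, with a lowest adjusted p of 0.0902. Without NT6.304, TG9.1.4 and TG9.1.1, a choice made after their values were seen, r was 0.40 for Dbp and Tef, 0.54 for Tef and Hlf, -0.63 for Hlf and Bhlhe41 and -0.01 for Dbp and Bhlhe41, and 0 pairs passed. Of the 10 pairs, 9 kept their sign without these libraries, and r for Nfil3 and Ciart was -0.49. Within the separate isolations, the low-Hlf mice TG9.1.4 and TG9.1.1 belonged to 1 family, 1 was an ELE and 1 a sedentary mouse, and their activity-induced genes summed to 563 and 289 CPM, against 3813 CPM in NT6.304. Of the 8 activity-induced genes, TG9.1.4 was the highest of its group for Fos, Fosb, Junb, Arc and Ier2 and the lowest for Npas4 and Nr4a1. TG9.1.1 was the highest of its group for Fos and Junb and the lowest for Fosb, Egr1, Arc, Npas4 and Nr4a1. The r of these 8 genes with Bhlhe41 ran from 0.41 (Npas4) to 0.92 (Fos) over the 20 libraries and from -0.58 (Npas4) to 0.78 (Fos) in the 17 that the study kept, as a description.

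**Figure D4:**
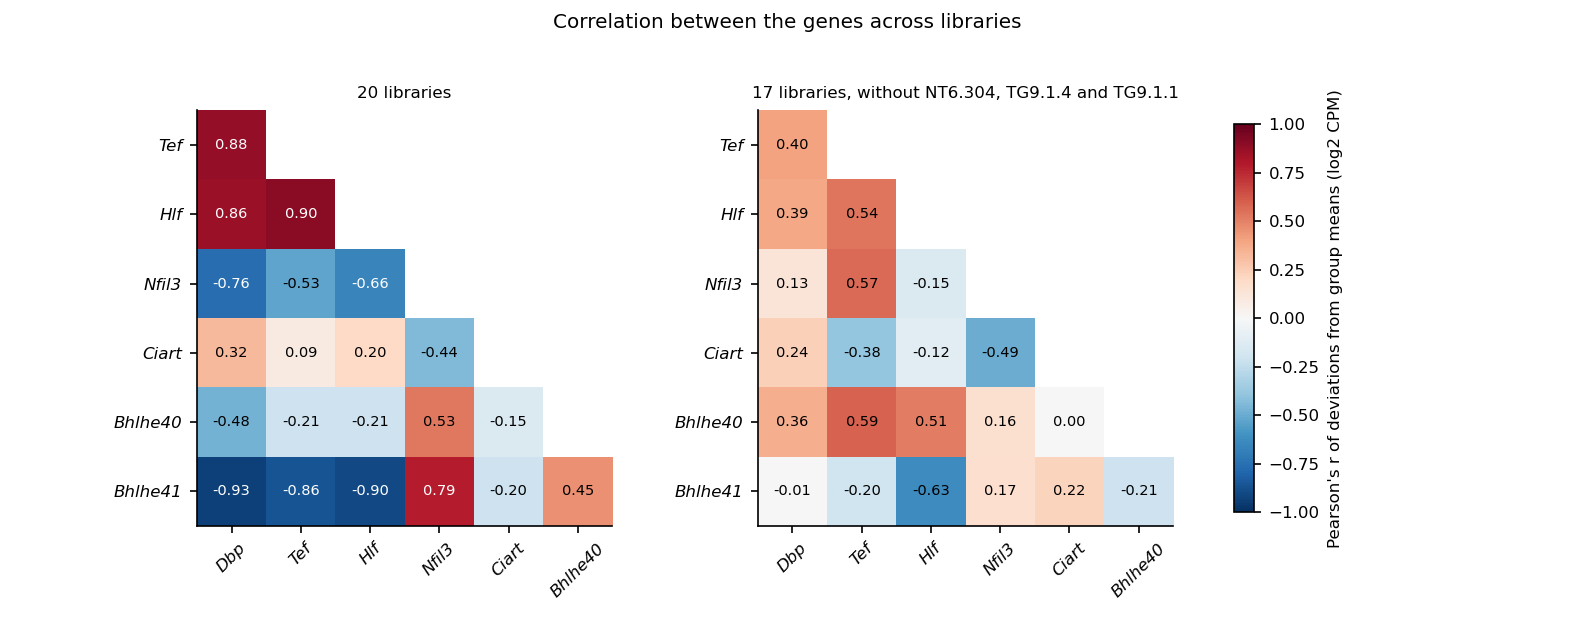
Each cell gives Pearson's r between 2 genes over deviations of log2 CPM from the group means, on the left over 20 libraries and on the right over 17, without NT6.304, TG9.1.4 and TG9.1.1. In the left panel Dbp, Tef and Hlf form a block of r from 0.86 to 0.90 opposed to Bhlhe41, at -0.86 to -0.93, and in the right panel the same cells lie between -0.63 and 0.54.

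**Figure D5:**
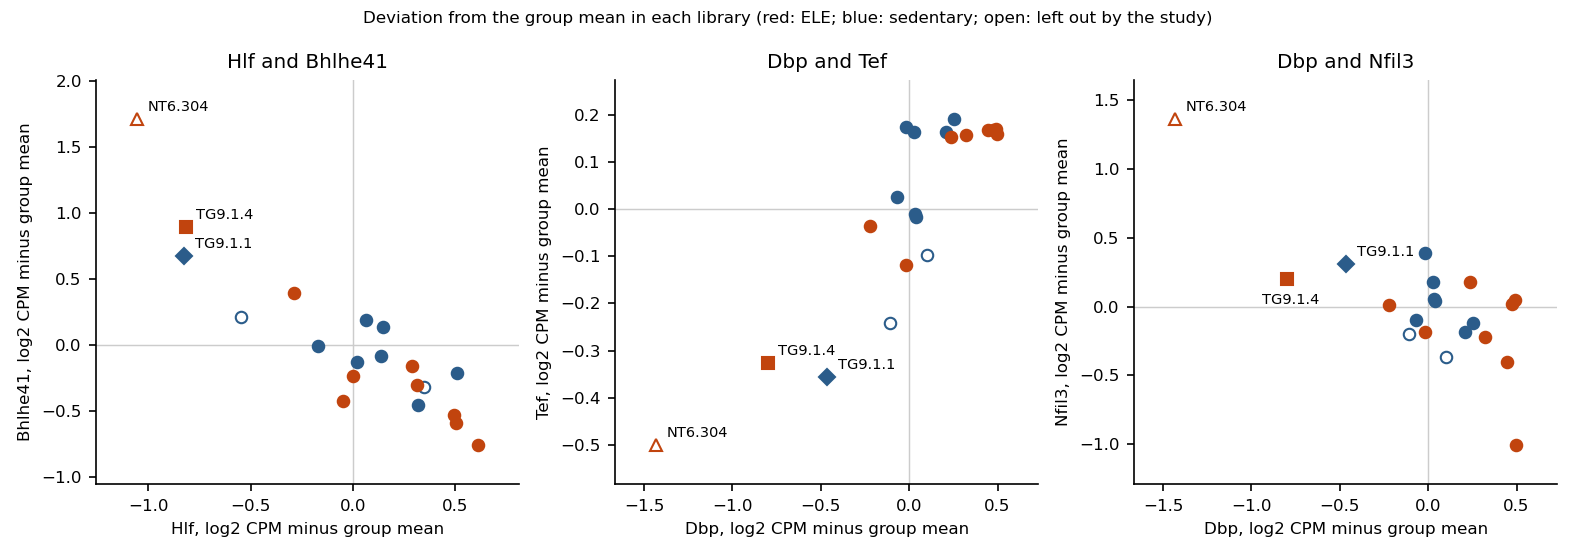
Each point is a library, with the log2 deviation of 1 gene from its group mean on the x axis and of another on the y axis, for Hlf and Bhlhe41, Dbp and Tef, and Dbp and Nfil3 (r = -0.90, 0.88 and -0.76 over 20 libraries). NT6.304 lies farthest out in each panel, and TG9.1.4 and TG9.1.1 lie between it and the other 17 libraries for Hlf and Bhlhe41.

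The genes whose group-centred levels were most like each of the 7 were sought among genes averaging 1 CPM or more. These correlations across 20 libraries are a description, and the libraries share NT6.304. Closest to Dbp were Aldh2, Tub, Stxbp6, Pnma3 and 4933431E20Rik, with r from 0.948 to 0.953. Closest to Tef were Cbx7, Ypel1, Scn2b, Fam163a and Sowaha (0.945 to 0.960), and closest to Hlf were Hist2h2be, Acss1, Ogfrl1, Clvs2 and Car11 (0.941 to 0.947). For Nfil3 they were Hdlbp, Kctd10, Spry2, Jun and Nsun2 (0.922 to 0.941), and for Bhlhe41 they were Kcnip3, Panx1, Rara, Sstr2 and Eif4g2 (0.967 to 0.971). Ciart had Ddx4, Rrm1, Pisd-ps2, Slu7 and Etfbkmt (0.740 to 0.881), of which Ddx4, Rrm1 and Pisd-ps2 were also the closest in the 17 kept libraries. Bhlhe40 had Mbd2, Ngdn, Zbed3, Cstb and Inafm2 (0.808 to 0.868), none of which stayed above r = 0.556 in the 17 kept libraries. For the genes listed for Dbp, Tef, Hlf and Bhlhe41, r in the 17 kept libraries was at least 0.893, and for those of Nfil3 and Ciart at least 0.712. Among the core clock genes, Per3 moved with Hlf (r = 0.92), Tef (0.88) and Dbp (0.86) and against Bhlhe41 (-0.92), and Nr1d2 moved with Dbp (0.90). In the 17 kept libraries Per3 had r = 0.89 with Hlf, 0.90 with Tef, 0.81 with Dbp and -0.91 with Bhlhe41. Per3 was at 7.65, 7.73 and 10.3 CPM in NT6.304, TG9.1.4 and TG9.1.1, against 12.6 to 33.5 CPM in all other libraries.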

How the data were processed

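TRAP-seq of hippocampus from Emx1-NuTRAP mice was measured in 20 libraries, with SIT groups of 4 ELE and 4 sedentary mice and left and right groups of 3 each. The authors aligned reads to GRCm38.p6 with STAR 2.7.3a, removed duplicates with Picard 1.87, counted fragments over exons per gene in a strand-aware way, and deposited raw counts per gene without normalization. Table columns carry mouse numbers. Their condition, isolation and side were read from the study's sample sheet and match the groups in the labels, without replicate numbers. If the columns instead stood in the order of the labels, left and right would change places for all 12 separately isolated mice, with the same mice in each group, so the names of the sides rest on that sheet. The SIT libraries kept by the study were found as the 1 of 24 subsets whose means gave the listed values for 633 of 633 genes. A wild-type table with 24 columns that could not be assigned to groups was not used here.

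Symbols came from GENCODE GRCm38 (54587 identifiers matched with version, 55154 without). Counts were scaled by TMM, filtered by filterByExpr and tested with edgeR 4.0.16 (R 4.3.3), with Benjamini-Hochberg adjustment over all genes of each fit. Calls need an unadjusted p under 0.05 and a fold over 1.3. Log2 CPM used a pseudocount of 0.5. Pairs of genes were tested with 100000 permutations within groups. The fits were tested on simulated data. Total counts of 45895097 to 65767802 per library make counting error small beside the spread between mice, with a chi-square per gene of 18.9 to 423 over 24 pairs of libraries of a group, so no library was a copy of another. Alternatives were DESeq2 1.42.0, median-of-ratios size factors, no filter, 1 fit over 20 libraries, a family block, other SIT subsets and leaving out each mouse. The 7 genes and all lists were chosen with earlier results of these data known. The text names all 7, list genes called in SIT (5 or all 8 mice), left or right, Arntl and the Per genes always, and the 5 genes most like each of the 7. Sequences came from RefSeq (GRCm38.p6).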

Additional observations from a re-analysis of the deposited data

Results flagged for a closer look

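For each gene the SIT groups of 4 mice were screened for a mouse whose gap to its nearest neighbour exceeded 0.829 of the range of its group, and 5 values were flagged among 14 groups of 4. By chance about 1 in 20 groups would be. In the SIT ELE group, mouse NT6.304 was flagged for Dbp at 6.78 CPM, for Tef at 239 CPM, for Bhlhe40 at 131 CPM and for Bhlhe41 at 230 CPM, all on the far side of the other 3 mice. In the SIT sedentary group, mouse NT7.2.3 was flagged for Bhlhe40 at 78.0 CPM. Both mice were among those that the study left out. The groups of 3 on the left and right were not screened.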

How the results depend on the processing

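Of the 7 genes, the count called in SIT moved from 0 to 1 with all 8 mice or without NT6.304 alone (an alternative chosen after seeing the data), and to 2 with the NT6 mice alone or in 1 fit over 20 libraries, where 7.84%, 7.05%, 6.74% and 12.1% of all genes were called. In 1 fit over 20 libraries the right count moved from 3 to 1 and the left from 3 to 2 (Nfil3 lost), with 1.51% and 1.07% of all genes called. Without a filter on low counts the right count was 4 and 1 gene was called for the interaction, Bhlhe41 in both (2.67% and 3.56% of all genes). The isolation count, of genes past an adjusted p of 0.05, moved from 1 to 0 with all 20 libraries. No paired analysis by the labels' replicate numbers was possible because the columns carry none. Family numbers were not used to pair mice in the main fits. Deviations of separately isolated mice from 1 family, taken across groups, correlated at -0.125 to 0.638 over 18 pairs, 8 above 0.1. For different families they ran from -0.463 to 0.375 over 36 pairs, 6 above 0.1. TG9.1.4 and TG9.1.1 gave the 0.638. A block on family left the left, right, both-hemisphere, interaction and hemisphere counts as they were. In SIT its ELE difference rested on NT6.303 alone, so no count is given. The block was not run for isolation. For the gene pairs, family means were removed along with group means in a further alternative, whose outcome is not given here. The number of gene pairs past the adjusted threshold went from 10 to 0 in the 17 kept libraries, to 1 without NT6.304 and to 0 without NT6.304, TG9.1.4 and TG9.1.1, the last 2 of these added after seeing the data. Without these 3 libraries the r of Dbp and Nfil3 changed sign, to 0.13. Leaving out 1 mouse gave counts of 0 to 1 in SIT, 2 to 3 on the left, 1 to 4 on the right, and 3 to 4 over both hemispheres. Past an adjusted p of 0.05 it gave 0 to 0 for the interaction and the hemisphere term and 1 to 1 for isolation, where the call rule instead gave 1 gene (Hlf) with all 17 mice, as for 14.8% of all genes, and 0 without TG7.4.1, TG7.4.2 or NT6.305. The causes were not tested. DESeq2 and median-of-ratios scaling changed none of these counts of genes called.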
